A study of Mus musculus with 28 samples.

Results

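The 45 genes described here drive or mark cell division, and were chosen by name from the series' probe annotation, not by how they behaved. They fall into 4 groups by role: 10 cyclins, kinases and E2F factors of the G1 phase, 12 genes of replication licensing, replication and nucleotide supply, 11 cyclins, kinases and checkpoint genes of G2 and mitosis, and 12 genes of the chromosome, centromere and spindle. Of the 45, 44 had a probe set with a single gene symbol among 19938 genes so named, and Ccnb1 had none. Where a gene had several probe sets, the brightest on average was taken.

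Gene expression was measured in 28 arrays of mouse embryonic fibroblasts (MEFs) that received lentiviral cardiac transcription factors, the setting of direct reprogramming to induced cardiomyocytes. The groups were HNGMT (3 arrays), HGMT (3), DMNT (4), DMT (4), NGMT (6), GMT (5) and MEFs without factors, 0F (3), where the letters H, N and G name Hand2, NKX2.5 and GATA4, and D, M and T name MYOCD, MEF2C and TBX5. Cells of the 6 factor groups also carried the activator rtTA and a reporter that puts zeocin resistance under a troponin T promoter, stood in a reprogramming medium with 2 μg/mL doxycycline, and were selected for 7 days with 300 μg/mL zeocin before collection on day 21. Titles and protocol give 0F as cells that received no lentivirus and were also collected on day 21, although their source label is worded like that of the selected cells. A comparison with 0F therefore spans virus, medium, doxycycline and selection as well as the factors, and these cannot be told apart. Replicates are called independent biological replicates in the protocol.

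The arrays fell into 3 sets of nearly equal signal distribution, with array medians from 6.68 to 6.75 log2 units in set 1, 6.86 to 6.95 in set 2 and 7.64 to 7.65 in set 3. Set 1 held all 0F arrays with GMT replicates 1 and 2 and NGMT replicates 1 to 3, set 2 held the other GMT and NGMT arrays, HGMT, HNGMT and DMT replicates 1 to 3, and set 3 held DMT replicate 4 and DMNT. Levels are therefore set side by side only within a set, and for HGMT, HNGMT, DMT and DMNT the comparison with 0F rests on a model with a set term. In set 3, 21.7% to 36.1% of genes had identical values in a pair of arrays, against 0.0702% to 2.16% in set 2. HNGMT replicate 1 stood apart, with a best correlation over genes of 0.991 with any array of its set, so the counts and leading differences of HNGMT are also given without it. The probe set of Hand2 read 9.97 to 10.15 in HGMT and 9.80 to 10.15 in HNGMT, against 7.17 to 7.45 in GMT and 7.27 to 7.37 in NGMT, and that of Myocd 9.57 to 9.80 in DMT against 6.01 to 6.09 in GMT of set 2. That of Nkx2-5 did not separate NGMT from GMT (medians of 7.95 in NGMT and 7.99 in GMT of set 2, with ranges that overlap), so the arrays do not check the NKX2.5 label. Nor do the probe sets of Mef2c and Tbx5 check theirs, which in set 1 were lower in GMT than in 0F (8.91 to 9.05 against 9.67 to 9.83 for Mef2c), and that of Gata4 was at 7.19 to 7.28 in GMT, against 6.95 to 7.04 in 0F. Of 8 fibroblast markers, 0 were below the array median on all arrays of any group. The summed signal of 10 cardiomyocyte markers in set 1 was 13.46 to 13.62 in GMT, against 9.76 to 9.84 in 0F. Of these markers Myh6, Myh7 and Pln were below the array median in both.

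Division is ordered by waves of transcription. D cyclins with CDK4 and CDK6 release E2F factors, which switch on replication genes. Later the MYB-MuvB complex with FOXM1 switches on mitotic genes such as those of B cyclins and kinesins. Late genes commonly carry a CHR element, at times with CCAAT boxes, and early genes E2F sites. Cardiomyocytes of the heart leave the cell cycle after birth, whereas embryonic fibroblasts divide readily in culture until they age.

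Promoter windows, from 250 bases before to 50 after a transcription start, were at hand from RefSeq (GRCm38.p6) for 36 of the 45 genes, in 39 windows. They were searched on both strands for the CHR letters TTTGAA, for CCAAT and for the E2F letters TTTCCCGC, TTTGGCGC and TTTCGCGC. CHR letters stood in 75.0% of the 8 windows of G2 and mitosis genes and in 72.7% of the 11 windows of chromosome, centromere and spindle genes, but in 8.33% of the 12 windows of replication genes, 12.5% of the 8 windows of G1 genes and 17.9% of all 32851 windows. E2F letters stood in 50% of the windows of replication genes, against 1.84% of all windows, and CCAAT in 74.4% of the 39 windows, against 37.4%. E2F letters stood in 12.5% of the windows of G1 genes and in 12.5% of those of G2 and mitosis genes, and in 0 of the 11 chromosome, centromere and spindle windows. A match is a description of letters and not a binding site, and 1 pair of matches to different motifs overlapped in the 39 windows.

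**Figure D1:**
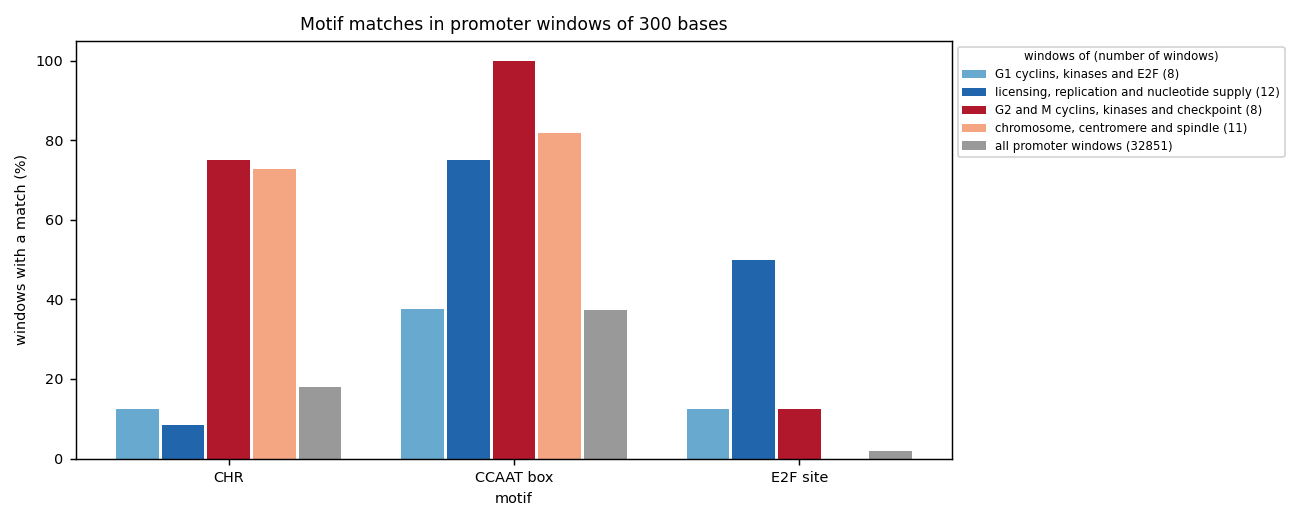
Share of promoter windows (vertical axis, percent) with at least 1 match to each motif (horizontal axis), in the 4 role groups and, in grey, in all 32851 windows. CHR letters stand out in both late groups (75.0% and 72.7%) and E2F letters in the replication group (50%).

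The windows of 7 genes on which the results below turn are given 5′ to 3′ in lower case, with every match to the 3 motifs in capitals. Ccnb2 and Top2a, which were higher with Hand2, have CHR letters and CCAAT boxes.
Ccnb2, chr9:70421505-70421804, strand -: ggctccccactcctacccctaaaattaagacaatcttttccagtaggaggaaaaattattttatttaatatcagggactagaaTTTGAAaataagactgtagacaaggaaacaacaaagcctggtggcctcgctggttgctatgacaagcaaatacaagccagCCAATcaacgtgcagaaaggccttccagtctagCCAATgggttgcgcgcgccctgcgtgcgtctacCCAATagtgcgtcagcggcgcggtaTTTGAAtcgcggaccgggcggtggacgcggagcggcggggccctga
Top2a, chr11:99024140-99024439, strand -: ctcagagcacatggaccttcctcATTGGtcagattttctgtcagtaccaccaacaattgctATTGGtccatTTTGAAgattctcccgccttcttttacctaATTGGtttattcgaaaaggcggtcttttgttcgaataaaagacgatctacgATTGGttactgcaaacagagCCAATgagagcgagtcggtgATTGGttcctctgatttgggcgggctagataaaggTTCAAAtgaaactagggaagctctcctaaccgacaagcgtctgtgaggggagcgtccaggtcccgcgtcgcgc
Cdk1, which was higher in every factor group than in 0F and not called with Hand2, has both of these motifs and 1 E2F match. Cenpa, which differed with MYOCD, has 1 CHR and 2 CCAAT matches.
Cdk1, chr10:69352863-69353162, strand -: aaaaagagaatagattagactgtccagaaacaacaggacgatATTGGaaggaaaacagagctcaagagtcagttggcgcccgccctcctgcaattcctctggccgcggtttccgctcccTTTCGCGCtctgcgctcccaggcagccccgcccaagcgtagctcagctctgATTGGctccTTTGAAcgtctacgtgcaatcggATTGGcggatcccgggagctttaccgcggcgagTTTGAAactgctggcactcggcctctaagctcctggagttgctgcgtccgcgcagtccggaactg
Cenpa, chr5:30666636-30666935, strand +: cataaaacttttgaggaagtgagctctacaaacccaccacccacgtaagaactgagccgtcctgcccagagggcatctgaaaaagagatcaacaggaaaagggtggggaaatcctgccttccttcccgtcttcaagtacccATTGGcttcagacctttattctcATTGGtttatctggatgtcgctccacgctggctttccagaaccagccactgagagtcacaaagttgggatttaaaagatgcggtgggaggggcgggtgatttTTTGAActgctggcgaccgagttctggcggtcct
E2f8, Rrm1 and Mcm6 are shown from the early genes that were higher with Hand2. Of these 3 Mcm6 alone has E2F letters, in 3 matches, and E2f8 has 1 CHR and 1 CCAAT match. Of those not shown, Mcm5 and 1 of the 2 windows of Mcm7 have 2 E2F matches each, and Tyms and Ccnd3 have none.
E2f8, chr7:48881547-48881846, strand -: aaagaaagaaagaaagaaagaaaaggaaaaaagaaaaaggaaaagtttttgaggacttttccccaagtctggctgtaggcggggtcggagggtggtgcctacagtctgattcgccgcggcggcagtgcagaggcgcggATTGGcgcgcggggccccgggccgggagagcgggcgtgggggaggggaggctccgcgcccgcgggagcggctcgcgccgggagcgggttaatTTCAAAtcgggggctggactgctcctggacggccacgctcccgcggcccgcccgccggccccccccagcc
Rrm1, chr7:102441445-102441744, strand +: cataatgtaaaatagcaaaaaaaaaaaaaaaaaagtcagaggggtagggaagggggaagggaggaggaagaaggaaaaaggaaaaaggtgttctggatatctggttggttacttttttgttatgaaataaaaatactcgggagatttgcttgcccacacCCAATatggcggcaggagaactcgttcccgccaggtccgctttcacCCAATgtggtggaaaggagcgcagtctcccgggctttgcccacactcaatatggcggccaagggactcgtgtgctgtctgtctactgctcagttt
Mcm6, chr1:128359656-128359955, strand -: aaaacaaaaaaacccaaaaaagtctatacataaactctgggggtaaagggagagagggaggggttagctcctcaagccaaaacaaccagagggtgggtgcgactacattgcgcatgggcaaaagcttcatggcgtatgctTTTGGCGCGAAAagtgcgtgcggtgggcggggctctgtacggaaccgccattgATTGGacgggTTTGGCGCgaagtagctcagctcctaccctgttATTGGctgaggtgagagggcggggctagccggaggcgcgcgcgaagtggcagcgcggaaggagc

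Only part of the cell cycle set was bright. Of the 44 genes, 17 were above the array median on all 28 arrays and 16 on none. The test took genes above the median on at least 3 arrays, which left 9 of 10 G1 genes (Ccne2 was dropped), 10 of 12 replication genes (Cdc6 and Mcm3 were dropped), 5 of 10 G2 and mitosis genes (Cdc25c, Plk1, Aurka, Bub1 and Bub1b were dropped) and 1 of 12 chromosome, centromere and spindle genes, Cenpa. A gene could pass through a group in which it was high, so all 44 were also tested in a fit without the filter, over 19938 genes. The 19 dim genes are described from that fit, since they were above the array median on fewer than 3 arrays. Tests were limma's moderated test with group and set as terms, and a gene is called at a Benjamini-Hochberg adjusted p under 0.05 over all genes of the fit. Differences are on the log2 scale, given with their standard error (SE).

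Whether Hand2 altered these genes is addressed by HGMT against GMT and HNGMT against NGMT. In the fit over all sets the set term draws on GMT and NGMT arrays of sets 1 and 2 for both, so only the values within set 2 share no array. With Hand2, mitotic and S-phase genes were higher in both: the mitotic cyclins Ccna2 and Ccnb2, the repressor E2f8 that closes the E2F wave, and the nucleotide enzymes Rrm1, a subunit of ribonucleotide reductase, and Tyms, thymidylate synthase. In HGMT against GMT 11 of the 25 tested genes were higher and 1 lower, where 12.2% of all tested genes were higher and 14.5% lower. In HNGMT against NGMT 9 were higher and 3 lower, where 8.73% and 22.9% were. Without HNGMT replicate 1, 8 were higher and 1 lower in the second comparison, where 1114 of all tested genes were higher and 2134 lower, 26.6% together. Ccna2 passed the filter only through the 6 Hand2 arrays and so had to differ, and the other 24 genes gave 10 higher and 8 higher. The median difference over the 25, Ccna2 included, was 0.14 and 0.05, against -0.01 and -0.04 over all tested genes.

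**Figure D2:**
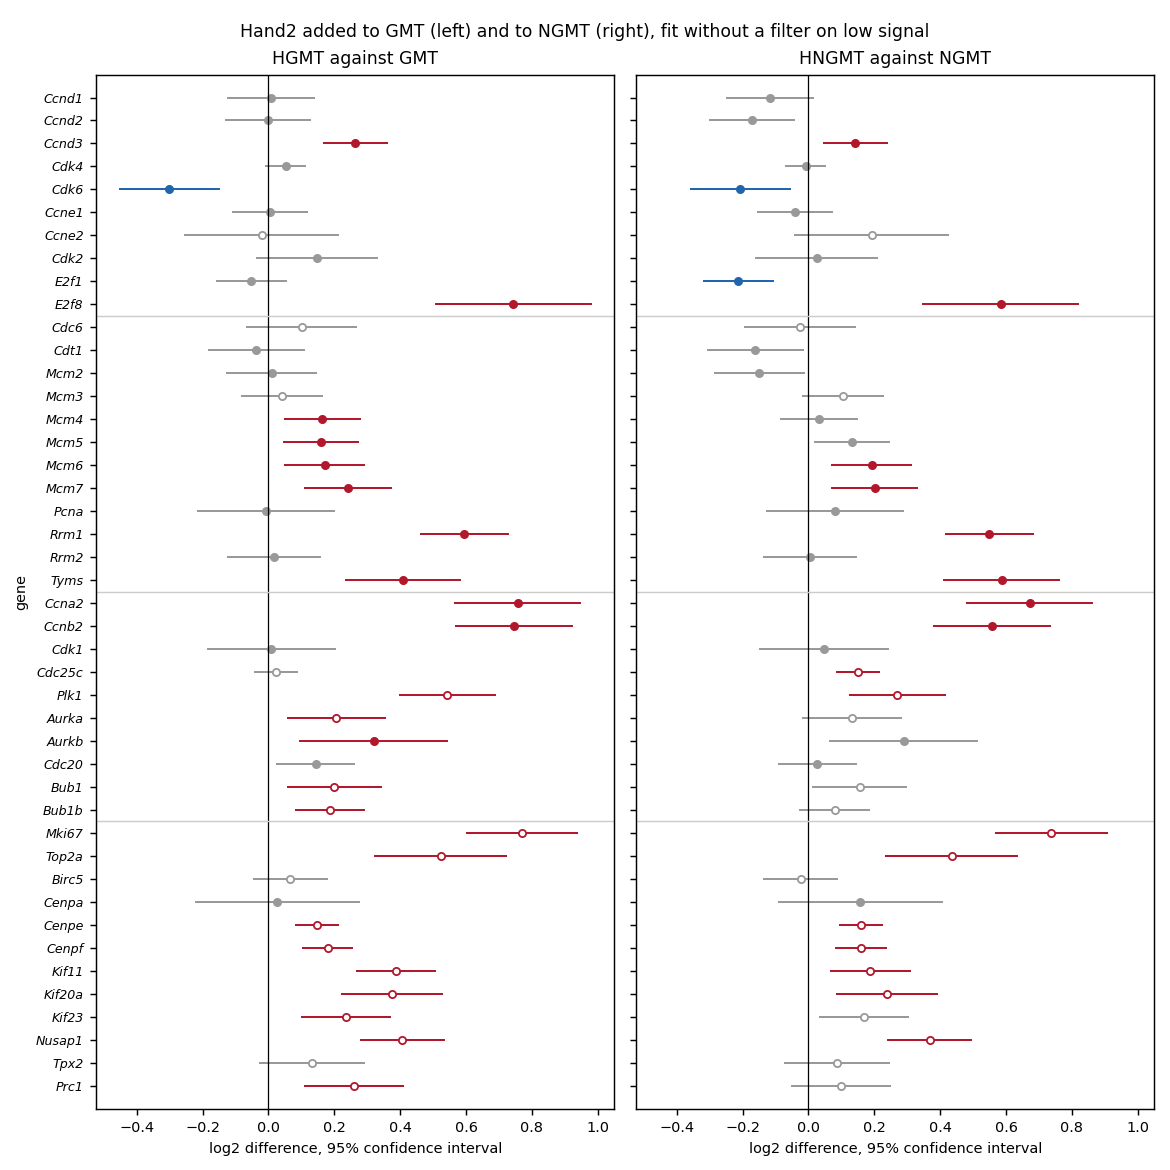
Log2 difference of each of the 44 genes (vertical axis) for HGMT against GMT and HNGMT against NGMT, with 95% confidence intervals, from the fit without a filter. Red is called higher, blue called lower and grey not called, and open points are the 19 genes too dim for the filtered test. Intervals of Ccna2, Ccnb2, E2f8, Rrm1, Tyms, Mki67 and Top2a lie above 0 in both panels.

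Ccna2, the cyclin of S phase and mitotic entry, read 7.34, 7.33 and 7.19 in HGMT, against 6.57, 6.60 and 6.22 in GMT of set 2. It read 7.14, 7.15 and 7.36 in HNGMT, against 6.72, 6.51 and 6.59 in NGMT of set 2. All 6 Hand2 arrays were above all 6 arrays without it, with a difference of 0.76 ± 0.09 (SE, adjusted p = 1.01e-06, limma without the filter) in HGMT and 0.67 ± 0.09 (adjusted p = 7.95e-06) in HNGMT. Within set 2 the differences were 0.82 and 0.61, and without HNGMT replicate 1 the second was 0.71.

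Ccnb2, a cyclin of mitosis, read 8.34, 8.28 and 7.98 in HGMT, against 7.50, 7.41 and 7.34 in GMT. In HNGMT it read 7.90, 7.95 and 8.27, against 7.48, 7.58 and 7.49 in NGMT. The groups did not overlap, and the differences were 0.75 ± 0.09 (adjusted p = 3.25e-07) and 0.56 ± 0.09 (adjusted p = 2.81e-05), the second being 0.62 without HNGMT replicate 1.

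E2f8 read 7.71, 7.44 and 7.55 in HGMT, against 6.92, 6.90 and 6.64 in GMT, and 6.95, 7.47 and 7.69 in HNGMT, against 6.87, 6.68 and 6.84 in NGMT. The lowest Hand2 value, 6.95, was that of HNGMT replicate 1, just above the NGMT arrays. The differences were 0.74 ± 0.12 (adjusted p = 2.7e-05) in HGMT and 0.58 ± 0.12 (adjusted p = 0.00051) in HNGMT, and the comparison in HNGMT gave 0.79 without that array.

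Rrm1 was 10.40, 10.22 and 10.35 in HGMT, against 9.60, 9.81 and 9.74 in GMT, and 10.47, 10.41 and 10.31 in HNGMT, against 9.86, 9.97 and 9.77 in NGMT. Tyms was 9.15, 9.21 and 9.19 in HGMT, against 8.74, 8.78 and 8.72 in GMT, and 9.54, 9.19 and 9.19 in HNGMT, against 8.77, 8.80 and 8.66 in NGMT. Neither gene had an overlap between groups. Rrm1 was higher by 0.60 ± 0.06 and 0.55 ± 0.06 (adjusted p = 1.09e-07 and 5.57e-07), and Tyms by 0.41 ± 0.08 and 0.59 ± 0.08 (adjusted p = 0.000679 and 1.21e-05). Without HNGMT replicate 1 the HNGMT differences were 0.51 for Rrm1 and 0.47 for Tyms.

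These 5 genes were called in the same direction in both comparisons under each of the 7 other fits and with each array left out in turn. Of these fits only the one without the filter bears on Ccna2, which the filter kept only through the Hand2 arrays. The remaining calls were smaller and less firm. Within set 2 alone 8 genes were higher and 0 lower in HGMT against GMT, where 994 of all 12211 tested genes were higher and 1086 lower, and 5 higher and 0 lower in HNGMT against NGMT, where 589 and 1556 were. Those 5 were the genes above, 62.5% of the first list and 100% of the second. Both shares count Ccna2, which the filter kept only through the Hand2 arrays and which therefore adds no support. Mcm4, Mcm5, Mcm6 and Mcm7, subunits of the replicative helicase, were higher by 0.16, 0.16, 0.17 and 0.24 in HGMT, and Mcm6 and Mcm7 by 0.19 and 0.20 in HNGMT. Without HNGMT replicate 1 the calls of Mcm6 and Mcm7 were lost (adjusted p = 0.0891 and 0.103). Aurkb, the kinase of the chromosomal passenger complex, was higher by 0.32 ± 0.11 and 0.29 ± 0.11 and was not called within set 2 (adjusted p = 0.124 and 0.177). Ccnd3, a D cyclin, was higher by 0.26 ± 0.05 and 0.14 ± 0.05, but after quantile normalization without a set term it was 0.12 and -0.05.

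Of the 9 tested G1 genes 2, E2f8 and Ccnd3, were higher in each comparison, while 1 was lower in HGMT and 3 in HNGMT. Cdk6, the partner of D cyclins, was lower in HGMT (-0.30 ± 0.07, adjusted p = 0.00306) and in HNGMT (-0.21 ± 0.07, adjusted p = 0.0335), and the second call was lost without HNGMT replicate 1 (-0.06, adjusted p = 0.391). Within set 2 the adjusted p of Cdk6 was 0.0676 and 0.0629. Ccnd2 and E2f1 were called lower in HNGMT, though not within set 2 (adjusted p = 0.203 and 0.0578). Ccnd2 was 12.19 on HNGMT replicate 1 and 12.64 on both other HNGMT arrays, against 12.67, 12.65 and 12.64 in NGMT, and without that array its difference was -0.02. E2f1 was 8.52 on that array and 8.80 and 8.79 on the other HNGMT arrays, against 8.94, 8.91 and 8.85 in NGMT, and without it the difference was -0.12 (adjusted p = 0.014). The D cyclin Ccnd1 was 12.27, 12.31 and 12.26 in HGMT, against 12.37, 12.41 and 12.16 in GMT, and the groups overlapped (0.01, 95% interval -0.12 to 0.14).

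Among genes present at high signal, the kinase Cdk1 and the clamp Pcna were not called in either comparison. Cdk1 read 8.55, 8.40 and 8.33 in HGMT, against 8.38, 8.45 and 8.42 in GMT, and 8.82, 8.47 and 8.47 in HNGMT, against 8.44, 8.73 and 8.46 in NGMT. Pcna read 10.82, 10.66 and 10.82 in HGMT, against 10.81, 10.77 and 10.80 in GMT, and 11.31, 10.72 and 10.69 in HNGMT, against 10.77, 10.83 and 10.81 in NGMT. Both overlapped in both comparisons, and the 95% interval of the Cdk1 difference ran from -0.19 to 0.20 in HGMT. Mcm2, another helicase subunit, read 7.81, 7.93 and 7.77 in HGMT, against 7.86, 7.89 and 7.68 in GMT, and overlapped as well.

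The dim genes of the spindle and of proliferation moved with the mitotic cyclins. In the fit without the filter 24 of 44 genes were higher and 1 lower in HGMT against GMT, where 8.28% and 8.93% of all 19938 genes were, and in HNGMT against NGMT 17 were higher and 2 lower, where 6.42% and 13.4% were. Without HNGMT replicate 1, 18 were higher and 1 lower in the second comparison, where 16.7% of all genes were called. Mki67, the classical proliferation marker, read 6.90, 6.89 and 6.70 in HGMT, against 6.02, 5.97 and 5.98 in GMT. It read 6.82, 6.67 and 6.90 in HNGMT, against 6.05, 6.12 and 6.23 in NGMT. Every Hand2 array was above every array without it, and the differences were 0.77 ± 0.08 (adjusted p = 1.12e-07) and 0.74 ± 0.08 (adjusted p = 3.29e-07), the second being 0.73 without HNGMT replicate 1.

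Top2a, the topoisomerase that untangles mitotic chromosomes, read 6.73, 6.57 and 6.38 in HGMT, against 6.13, 5.94 and 5.85 in GMT, and 6.52, 6.39 and 6.70 in HNGMT, against 6.03, 6.23 and 6.25 in NGMT. Its groups did not overlap either, with differences of 0.52 ± 0.10 and 0.43 ± 0.10, the second being 0.44 without HNGMT replicate 1. Plk1, a kinase of mitotic entry and exit, was higher by 0.54 ± 0.07 and 0.27 ± 0.07, and Nusap1, a spindle protein, by 0.41 ± 0.06 and 0.37 ± 0.06. The kinesins Kif11, which parts the spindle poles, and Kif20a, which acts in cytokinesis, were higher by 0.39 and 0.38 in HGMT and by 0.19 and 0.24 in HNGMT. The kinetochore genes Cenpe and Cenpf were higher by only 0.15 and 0.18 in HGMT and by 0.16 and 0.16 in HNGMT, from readings of 4.98 to 5.71 in set 2. Aurka, Bub1, Bub1b, Kif23 and Prc1 were called in HGMT and not in HNGMT, and Cdc25c in HNGMT and not in HGMT, a contrast that the interaction test below did not call. Birc5, Tpx2, Ccne2, Cdc6 and Mcm3 were called in neither.

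**Figure D3:**
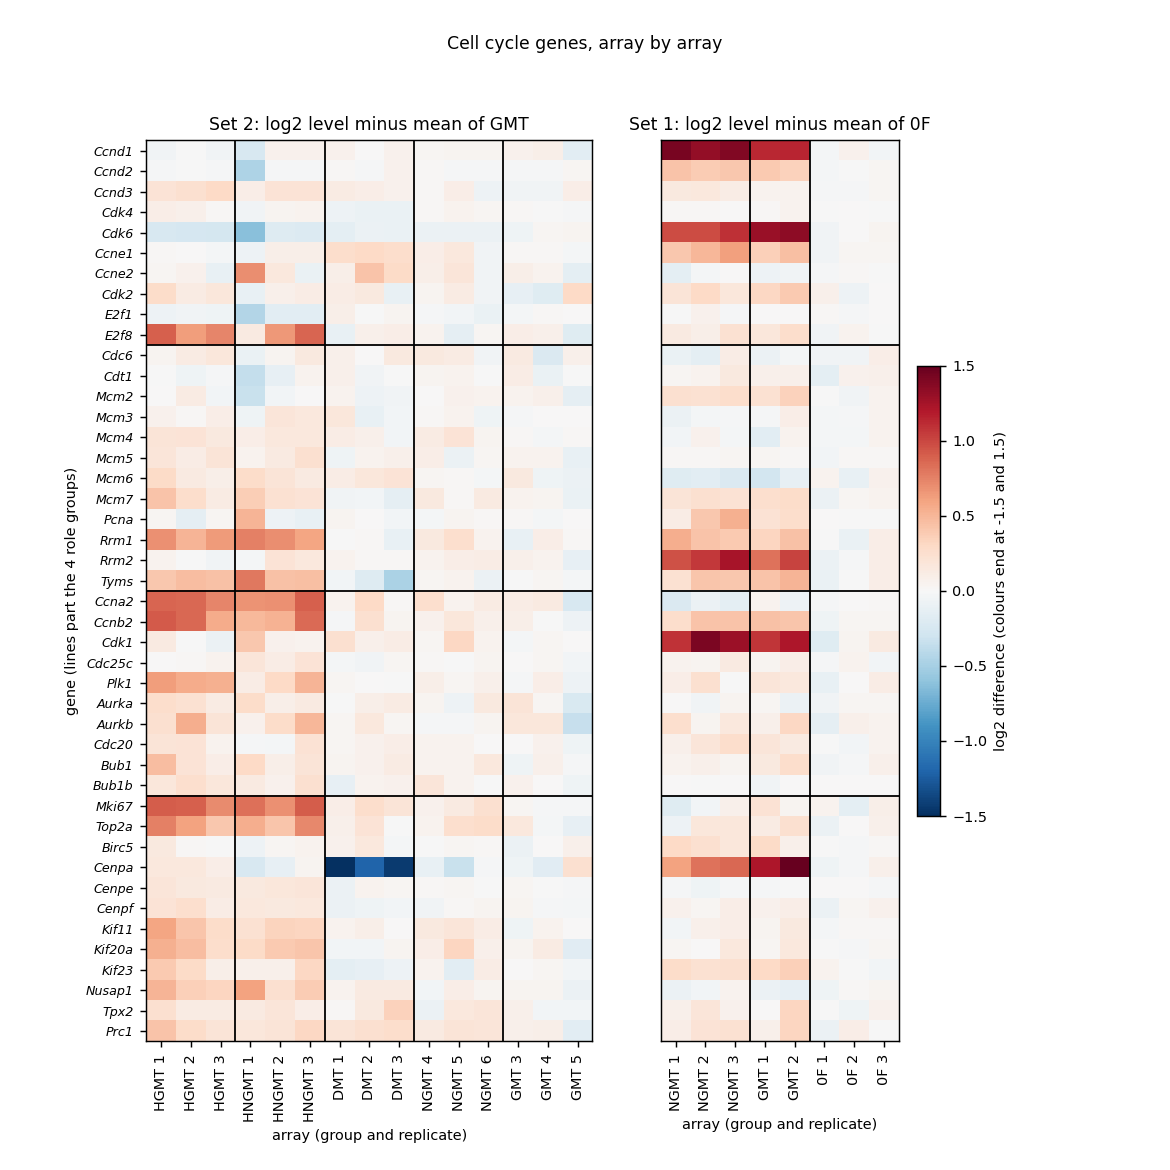
Log2 level of each of the 44 genes (rows, ordered by role) on each array of set 2 (left, relative to the GMT mean) and of set 1 (right, relative to the 0F mean). Red is higher and blue lower. The HGMT and HNGMT columns are red at E2f8 (pale on HNGMT replicate 1), Rrm1, Ccna2, Ccnb2, Mki67 and Top2a, the DMT columns are blue at Cenpa, and the NGMT and GMT columns of set 1 are red at Ccnd1, Cdk6, Rrm2, Cdk1 and Cenpa.

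Counted array by array in set 2, 24 of 44 genes had every HGMT array above every GMT array and 2 had every one below, where 14.6% and 15.2% of all genes did. For HNGMT against NGMT the counts were 17 above and 3 below, where 8.48% and 16.9% of all genes did. Whether the Hand2 difference depended on NKX2.5 was tested as an interaction. Limma called 0 of the 12211 genes (0%) and so 0 of the 25 cell cycle genes, of which 2, E2f1 and Ccnd2, had an unadjusted p under 0.05. Without the filter it also called 0 of the 44. HNGMT against HGMT likewise had 0 limma calls among the 25 (3 at an unadjusted p under 0.05), where 0.131% and 0.491% of genes were higher and lower, but 2 were called lower without HNGMT replicate 2, where 19.7% of all genes were called, and 7 lower without HNGMT replicate 3, where 25.7% were.

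Markers of other cell types moved in the same comparisons. Of all tested genes 12.2% were higher and 14.5% lower in HGMT against GMT, and 8.73% and 22.9% in HNGMT against NGMT. All 8 tested adipocyte genes were higher in HGMT than in GMT, with a log2 summed signal of 12.92 to 13.25 in HGMT against 11.56 to 12.04 in GMT of set 2, and 6 of 8 were higher in HNGMT than in NGMT (12.39 to 13.32 against 11.82 to 12.23). Of the list, Retn and Lep were below the array median on all GMT arrays of set 2. Of the endothelial list, 2 of 3 tested genes were higher in each comparison, and Pecam1, Kdr, Tie1, Emcn and Vwf were below the median on all arrays of HGMT and of HNGMT. The cardiomyocyte list was lower without overlap, at 13.14 to 13.17 in HGMT against 13.46 to 13.63 in GMT, and at 13.01 to 13.20 in HNGMT against 13.49 to 13.70 in NGMT of set 2, with 1 of 9 tested genes higher and 4 lower in HGMT, and 1 higher and 3 lower in HNGMT. Macrophage markers were at 10.34 to 10.36 in HGMT and 10.42 to 10.66 in GMT, and reached 12.02 on 1 HNGMT array. The part of these cell types in the Hand2 differences was not tested. In cultures measured whole, more dividing cells and more RNA of these genes per cell cannot be told apart.

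Genes next to these in the same machinery gave a mixed picture. Of all tested genes 12.2% were higher and 14.5% lower in HGMT against GMT, and without the filter 8.28% and 8.93% of all genes were. Of 15 other kinetochore and spindle genes tested, 3 were higher and 3 lower in HGMT against GMT (median 0.02), and without the filter 13 of 49 were higher and 2 lower. Ube2c, the ubiquitin ligase partner of mitotic exit, was higher (0.47 ± 0.08) and Zwint, a kinetochore protein, lower (-0.45 ± 0.06). Of 28 other replication genes 3 were higher and 2 lower, with Pole2, a subunit of polymerase epsilon, at 0.53 ± 0.10 and Dut, the enzyme that clears dUTP, at -0.51 ± 0.06. The condensin subunits Smc4 (0.48 ± 0.07) and Ncapd2 (0.30 ± 0.06) and the mitotic brake Wee1 (0.42 ± 0.06) were higher, while Lmnb1, a nuclear lamin, was lower (-0.41 ± 0.07). Of 6 CDK inhibitors 3 were higher, Cdkn1b (0.35 ± 0.08), Cdkn1c (0.34 ± 0.06) and Cdkn2d (0.15 ± 0.05), and Myc was lower (-0.55 ± 0.11) while Mycn was higher (0.56 ± 0.08). In HNGMT against NGMT, Ube2c, Pole2, Smc4, Wee1, Cdkn1c and Mycn were again higher, and Zwint, Dut, Lmnb1 and Myc lower.

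**Figure D4:**
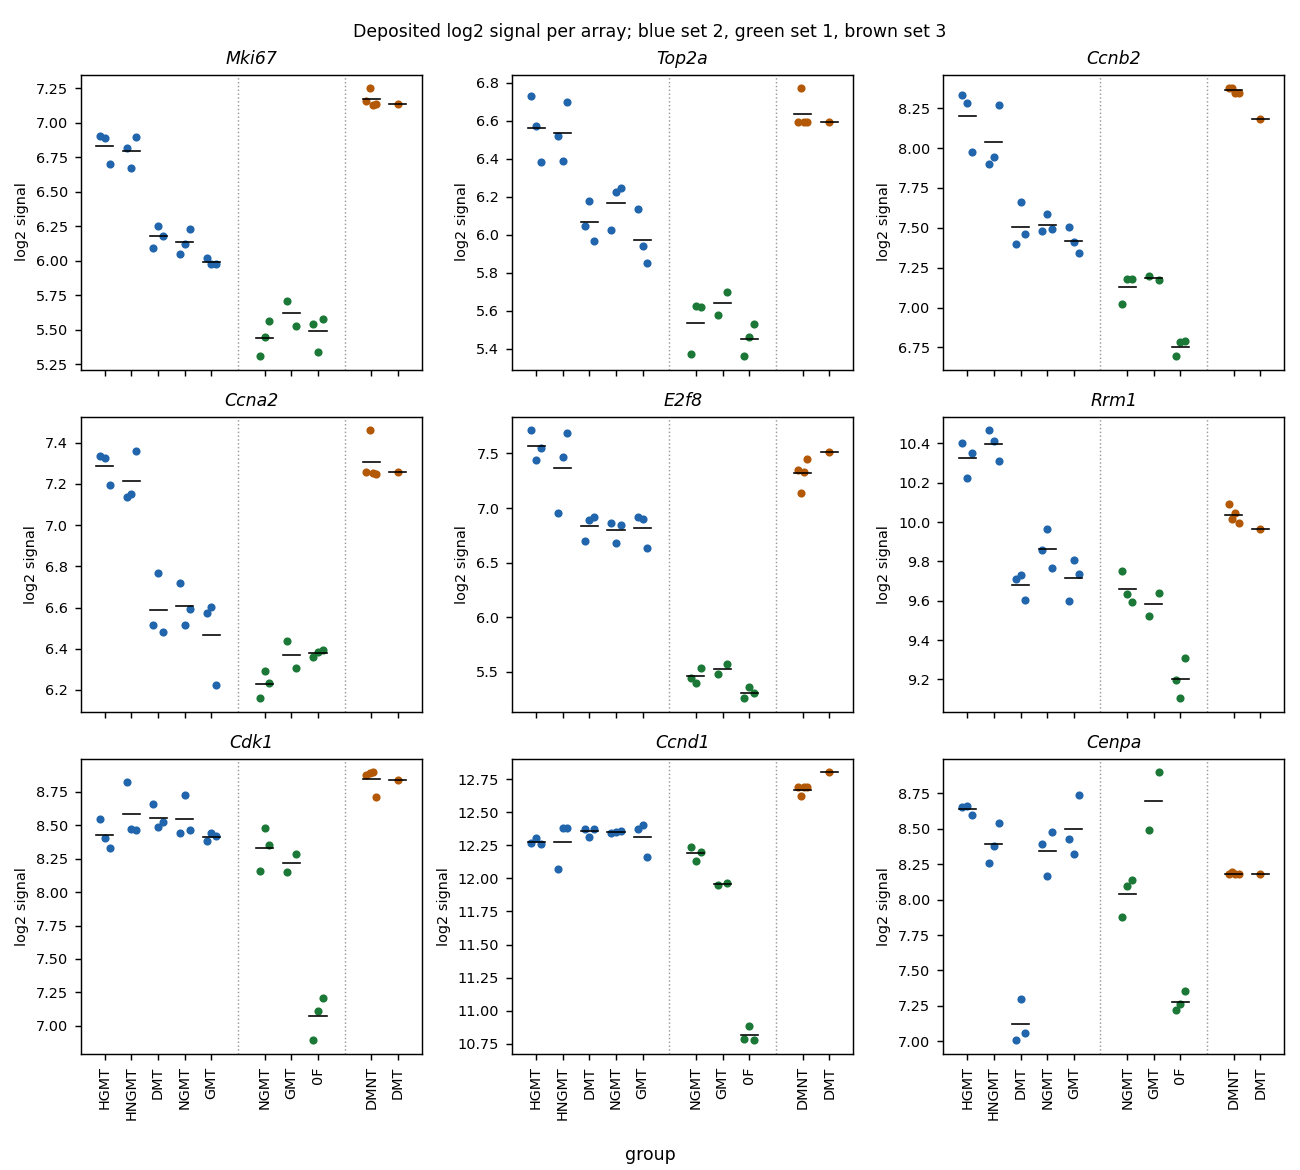
Deposited log2 signal of 9 genes on each array (points) with group means (bars). Groups of set 2 (blue), set 1 (green) and set 3 (brown) are parted by dotted lines, since levels compare only within a set. HGMT and HNGMT lie above DMT, NGMT and GMT for Mki67, Top2a, Ccnb2, Ccna2, E2f8 and Rrm1, the 0F arrays are lowest in set 1 for Cdk1, Ccnd1 and Cenpa, and the DMT arrays of set 2 are low for Cenpa.

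Against 0F genes of every phase were higher. All 6 factor groups had more message of the D cyclins Ccnd1 and Ccnd2, of Cdk6, of the S-phase cyclin Ccne1, of both ribonucleotide reductase subunits Rrm1 and Rrm2, of Ccnb2 and of Cdk1, the mitotic kinase. These 8 of the 25 tested genes were called higher in all 6 comparisons, where 18.9% of all tested genes were. Cdk4, Cdt1 and Mcm4 were called in none. The 6 comparisons share the 3 arrays of 0F, and DMNT is linked to 0F through DMT replicate 4 alone, so its result is not separate from that of DMT.

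In GMT against 0F 15 of 25 genes were higher and 1 lower, where 35.9% and 24.1% of all tested genes were, and in NGMT 16 and 1, where 36.6% and 24.2% were. Ccna2, kept by the filter only through the Hand2 arrays, is among those counted in HGMT and HNGMT. Counts were 19 and 0 in HGMT (29.9% and 21.2% of all), 18 and 1 in HNGMT (26.5% and 23.2%), 12 and 0 in DMT (34.6% and 21.8%) and 8 and 0 in DMNT (26.4% and 15%). Without HNGMT replicate 1 those of HNGMT were 19 and 1, where 54.4% of all genes were called. The median over the 25 genes was 0.26 in GMT, 0.26 in NGMT, 0.45 in HGMT, 0.45 in HNGMT and 0.21 in DMT, against 0.01 to 0.06 over all tested genes in these comparisons. Without the filter the counts of 44 were 17 and 1 in GMT and 30 and 0 in HGMT, where 24.1% and 19.8% of all genes were higher. Within set 1, where both groups were measured together, 25 of 44 genes had every GMT array above every 0F array and 3 below, where 33.4% and 24.2% of all genes did, and 20 had every NGMT array above and 2 below, where 29% and 22.9% did.

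Ccnd1 read 11.95 and 11.96 in GMT and 12.24, 12.13 and 12.20 in NGMT of set 1, against 10.79, 10.88 and 10.78 in 0F. Every factor array of set 1 was above every 0F array, by 1.21 ± 0.07 (SE) in GMT and 1.33 ± 0.06 in NGMT, and the difference was 1.16 to 1.33 over the 6 groups. Ccnd2 read 12.43 and 12.39 in GMT and 12.47, 12.43 and 12.44 in NGMT, against 12.02, 12.04 and 12.07 in 0F, a smaller difference of 0.38 ± 0.07 in GMT. Cdk6 was higher by 1.25 ± 0.08 in GMT and by 0.86 ± 0.10 in HNGMT, the extremes of the 6 groups. Ccne1 was higher by 0.42 ± 0.06 in GMT and by 0.70 ± 0.07 in DMT.

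Cdk1 read 8.15 and 8.29 in GMT and 8.16, 8.48 and 8.35 in NGMT, against 6.89, 7.11 and 7.21 in 0F. The groups were about a unit apart on the log2 scale, and the difference was 1.14 ± 0.10 in GMT and 1.14 to 1.31 over the 6 groups. Rrm2, the subunit of ribonucleotide reductase made in S phase, was higher by 0.94 to 1.07. Pcna read 10.38 and 10.43 in GMT and 10.27, 10.56 and 10.69 in NGMT, against 10.17, 10.15 and 10.16 in 0F, and Mcm2 read 7.71 and 7.82 in GMT and 7.72, 7.71 and 7.75 in NGMT, against 7.48, 7.43 and 7.54 in 0F. Neither overlapped, with differences of 0.28 ± 0.11 and 0.26 ± 0.07 in GMT. The Pcna call in GMT was lost within set 1 and without any of 0F replicates 1, 2 and 3. That of Mcm2 was lost with a set term of 2 levels. Of the other helicase subunits Mcm7 was higher in GMT (0.21), and Mcm4 and Mcm5 were not called. Mcm6 was lower, at 6.23 and 6.39 in GMT and 6.33, 6.35 and 6.29 in NGMT, against 6.56, 6.40 and 6.57 in 0F (-0.20 ± 0.06 in GMT and -0.19 ± 0.06 in NGMT). It was above the array median on 0 arrays of set 1. Both calls were lost after quantile normalization and with a set term of 2 levels. E2f1 read 8.42 and 8.42 in GMT and 8.41, 8.48 and 8.40 in NGMT, against 8.43, 8.39 and 8.42 in 0F, with full overlap.

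Of the genes higher with Hand2, Ccnb2, Rrm1 and Tyms were also called higher in GMT and NGMT against 0F, as without the filter was Kif23 (0.30 and 0.27). In these fits over all sets Mki67, Top2a, Ccna2 and E2f8 were not. Within set 1 alone, and after quantile normalization, E2f8 was called higher in both groups. It read 5.48 and 5.57 in GMT and 5.45, 5.40 and 5.54 in NGMT, against 5.26, 5.37 and 5.30 in 0F. Ccna2 was called lower in NGMT within set 1, at 6.16, 6.29 and 6.23, against 6.36, 6.39 and 6.39 in 0F. Mki67 read 5.71 and 5.53 in GMT and 5.31, 5.45 and 5.56 in NGMT, against 5.54, 5.34 and 5.58 in 0F, and Top2a read 5.58 and 5.70 in GMT and 5.37, 5.62 and 5.62 in NGMT, against 5.36, 5.46 and 5.53 in 0F. Mki67 overlapped in both groups, and Top2a overlapped in NGMT and not in GMT, where both arrays were above those of 0F. In the fit without the filter Mki67 differed from 0F by 0.02 ± 0.09 in GMT and 0.02 ± 0.08 in NGMT, and Ccna2 in the filtered fit by -0.10 and -0.09. In HGMT and HNGMT, reached through the set term, Mki67 was higher than in 0F by 0.79 ± 0.11 and 0.76 ± 0.11 and Ccna2 by 0.65 ± 0.12 and 0.58 ± 0.12. Without HNGMT replicate 1 these were 0.75 for Mki67 and 0.62 for Ccna2 in HNGMT. E2f8 was higher by 0.95 ± 0.15 and 0.75 ± 0.15, but its set term is large, since GMT and NGMT arrays of set 2 averaged 1.32 above those of set 1. For Mki67 and Ccna2 this shift was 0.55 and 0.25, so their differences rest on an additive set term as well. GMT also differed between sets 1 and 2 in other lists, such as epithelial and mesothelial markers (13.21 to 13.30 against 10.93 to 11.10). Whether the set difference is additive was not tested. Higher signal of Cdk1 and Ccnd1 was thus seen in factor groups whose Mki67 and Ccna2 were not called higher.

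**Figure D5:**
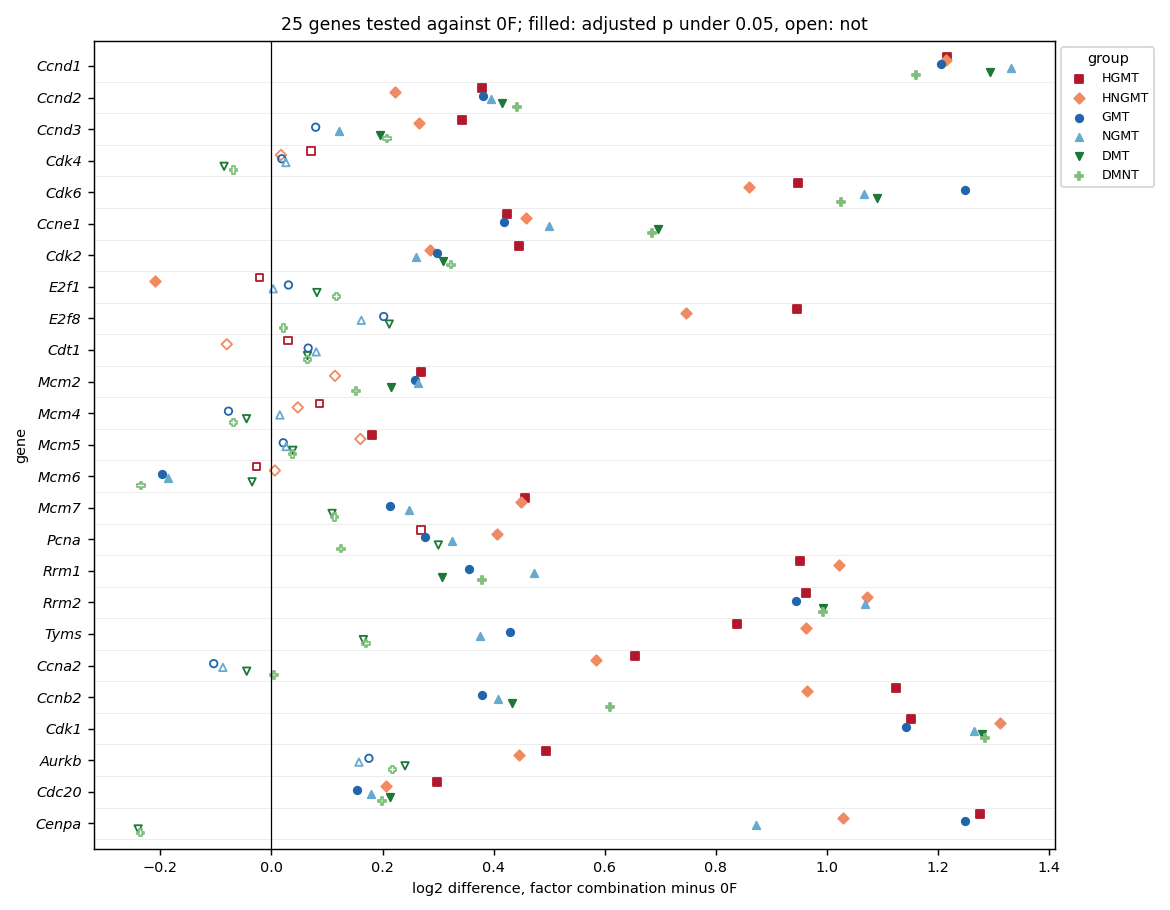
Log2 difference of the 25 tested genes (vertical axis) between each factor group and 0F (horizontal axis). Filled symbols are called and open ones are not. Ccnd1, Cdk6, Rrm2 and Cdk1 lie far to the right in all 6 groups, Ccna2, E2f8, Rrm1 and Tyms split HGMT and HNGMT from the rest, and Cenpa splits DMT and DMNT from the rest.

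Brakes of the cycle changed in both directions against 0F. Of all tested genes 35.9% were higher and 24.1% lower in GMT, 29.9% and 21.2% in HGMT, and 34.6% and 21.8% in DMT. In GMT the inhibitors Cdkn1c (-1.31 ± 0.06), Cdkn1b (-1.18 ± 0.08) and Cdkn2c (-1.14 ± 0.12) were lower, and 2 of the 6 tested were higher. Of 11 tested p53 targets of cell cycle arrest 10 were higher and 1 lower in GMT (median 1.01), in HGMT (1.06) and in DMT (1.00), among them Eda2r, Btg2 and Mdm2 at 1.75, 1.62 and 1.55 in GMT. Zeocin, which breaks DNA, was given to the factor groups alone, and its share cannot be told apart from that of the factors. Of 15 other kinetochore and spindle genes 8 were higher and 0 lower in GMT, led by the spindle protein Ckap2 (1.72 ± 0.07) and the cytokinesis scaffold Anln (1.18 ± 0.09). Dbf4, the partner of the replication kinase CDC7, was higher by 1.24 ± 0.09 and Chaf1b, a histone chaperone subunit, by 0.81 ± 0.10. Signals of other cells moved too: in GMT all 8 tested adipocyte markers and 9 of 10 macrophage markers were lower than in 0F (log2 summed signal 10.35 to 10.53 against 14.90 to 14.95, and 10.47 to 10.66 against 12.77 to 13.26), and all 7 tested epithelial and mesothelial markers were higher. The cardiomyocyte list was higher (7 of 9 tested genes) and the fibroblast list lower (7 of 8, log2 summed signal 14.50 to 14.63 in GMT against 15.32 to 15.36 in 0F). Their part in the differences of the cycle genes was not tested.

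With MYOCD in place of GATA4 few of these genes were called, and Cenpa had the largest difference of them. In DMT against GMT 1 of 25 genes was higher and 3 lower, where 9.84% and 8.75% of all tested genes were. Cenpa, the histone H3 variant that marks the centromere, read 7.01, 7.30 and 7.06 in DMT, against 8.43, 8.33 and 8.74 in GMT of set 2. The DMT arrays were all lower by more than a log2 unit, and the difference was -1.49 ± 0.12 (adjusted p = 8.64e-10), a fold of 2.81 lower. It was -1.38 within set 2 (adjusted p = 8.6e-07). Against 0F, Cenpa was higher by 1.25 ± 0.13 in GMT, 0.87 ± 0.12 in NGMT, 1.28 ± 0.16 in HGMT and 1.03 ± 0.16 in HNGMT. It was not called in DMT (-0.24 ± 0.16) or in DMNT (-0.24 ± 0.24), whose value is reached through DMT replicate 4 alone.

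Of the 11 dim genes of the same role limma called 0 in DMT against GMT without the filter, and 2, Kif23 and Prc1, had an unadjusted p under 0.05. Ccne1 was the gene called higher in DMT, at 8.70, 8.73 and 8.70, against 8.45, 8.46 and 8.40 in GMT (0.28 ± 0.05, adjusted p = 0.00039). Tyms (-0.26 ± 0.08) and Cdk4 (-0.10 ± 0.03) were called lower, though not within set 2 (adjusted p = 0.191 and 0.149). Among the neighbouring lists Anln was higher in DMT by 1.07 ± 0.09 and Lmnb1 lower (-0.68 ± 0.07). Of 8 adipocyte markers 5 were lower, where 8.75% of all tested genes were.

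With NKX2.5 added there was a single call. In NGMT against GMT 0 genes were higher and 1 lower, where 0.688% and 0.942% of tested genes were. That gene was Cenpa, at 7.88, 8.10 and 8.14 in NGMT, against 8.49 and 8.90 in GMT of set 1, and at 8.39, 8.16 and 8.48 in NGMT, against 8.43, 8.33 and 8.74 in GMT of set 2. The arrays were apart in set 1 and overlapped in set 2, and the call (-0.38 ± 0.10, adjusted p = 0.042) was lost without any 1 of 7 of the 11 arrays: GMT replicates 1, 2 and 5 or NGMT replicates 1, 2, 3 and 5. The difference of the difference between sets was not called for it (adjusted p = 0.251) or for any of the 25 (2 at an unadjusted p under 0.05, limma), where 0.27% and 0.369% of genes were higher and lower. In DMNT against DMT limma called 0 of 25 (1 at an unadjusted p under 0.05), where 0.0655% and 0.00819% were higher and lower, a comparison that rests on 1 DMT array in a set with many identical values. The largest difference among the 44 was 0.20 in size. In DMNT against NGMT 1 was called, Cenpa, which was lower (-1.11 ± 0.21, adjusted p = 0.0013), where 3.6% of genes were higher and 2.67% lower. DMNT is linked to NGMT through DMT replicate 4 alone. Cenpa read 8.18 on that array and 8.18 to 8.19 in DMNT, so this call is not separate from that of DMT.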

How the data were processed

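The authors deposited log2 signal per probe set for 28 single-channel arrays. MAS5 is named in the submitters' processing notes, without a version, and the scaling method was not given in these sources. Of 35556 probe sets 21789 had 1 gene symbol in the platform annotation, 1621 several and 12146 none, and of several probe sets for one of the 19938 genes the brightest on average was used.

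The 3 array sets were found from the arrays' signal distributions and are not in the labels: the largest distance between arrays inside a set was 0.0486 log2 units and the smallest between sets 0.135. Tests used limma (3.58.1, under R 4.3.3), with group and set as terms, a trend in the variance prior, 19 residual degrees of freedom and Benjamini-Hochberg adjustment over the 12211 genes above the array median on at least 3 arrays. The arrays of GMT and NGMT in sets 1 and 2 linked HGMT, HNGMT and DMT to 0F, and DMT replicate 4 further linked DMNT, on the assumption that the set difference is additive. A fit without the filter ran over 19938 genes. The code was tested on simulated data. The number of arrays limits the precision.

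Any of the 45 genes could be named in the text. Values were given for up to 3 called genes of largest difference in each role group and companion list, with others named after their values were seen, and Mki67, Top2a, Cdk1, Ccnd1, Ccnd2, Pcna, Mcm2 and E2f1 were given array by array. The genes and lists were chosen with earlier results of these data known. Replicate numbers were not used as pairs in the main fit. Of 42 pairs with the same number in the titles 11 had deviations that correlated above 0.1, with a range from -0.338 to 0.408. Pairs of different number were not set beside them, so this does not exclude pairing. Alternatives were quantile normalization without a set term, fits within a set, a set term of 2 levels, no filter, the mean of probe sets, no trend, replicate blocks, leaving out each array and, added after the results were read, no filter together with leaving out HNGMT replicate 1.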

Additional observations from a re-analysis of the deposited data

Results flagged for a closer look

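With set means removed, 176 pairs of a gene and a group of at least 4 arrays were checked for an array far from the others of its group. Of these 19 were found. The limit used gives about 1 in 20 by chance for independent values without ties, which these are not. Of these 18 were in DMNT, whose arrays often hold identical values: in 9 of them the other 3 arrays were identical, and the whole range was between 0.00335 and 0.239 log2 units. DMNT replicate 2 was the array apart for Cdc6 at 7.05 (others 6.81 to 6.84), Ccna2 at 7.46 (others 7.25 to 7.26), Top2a at 6.77 (others 6.59), Birc5 at 7.00 (others 6.94), Kif20a at 7.11 (others 7.04), Kif23 at 7.14 (others 7.11), Mcm7 at 8.82 (others 8.81) and Cenpa at 8.19 (others 8.18), all higher, and for Ccnd1 at 12.62, which was lower (others 12.69). DMNT replicate 4 was apart for Cdk1 at 8.71 (others 8.87 to 8.90), Tpx2 at 7.56 (others 7.61 to 7.62) and E2f1 at 9.73, the lowest by 0.00345, and was higher for Aurka at 7.57 (others 7.54) and Mcm6 at 7.68 (others 7.66). DMNT replicate 3 was lower for Ccne2 at 7.31 (others 7.33) and Plk1 at 7.16 (others 7.17), and DMNT replicate 1 higher for Cdk2 at 8.74 (others 8.66 to 8.67) and Cenpf at 6.14 (others 6.08). The remaining case was Cdk6 on NGMT replicate 3, at 9.997 before set means were removed, with the other NGMT arrays at 9.75 to 9.88.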

How the results depend on the processing

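Counts are of the genes called among 25, or among 44 without the filter. A count with no share of all genes beside it shows only how the calls depend on processing. It is not read as a result about these genes. The main fit gave 12 for HGMT against GMT and 1 for NGMT against GMT, where 26.7% and 1.63% of all tested genes were called. Quantile normalization without a set term gave 7 and 0 for these, where 16.6% and 0.0328% were called. It gave 17 for DMNT against 0F and 14 for DMNT against NGMT, where 63.8% and 44.4% of all tested genes were called. A set term of 2 levels gave 11 for NGMT against 0F, where 44.5% of all tested genes were called, against 60.8% in the main fit. It gave 5 for HGMT against GMT (11.5% of all), 0 for NGMT against GMT (0.27%) and 5 for HNGMT against NGMT. For DMNT the set term of 2 levels gave 25 against 0F, 24 against DMT and 23 against NGMT, where 85.7%, 91.4% and 91.5% of all tested genes were called. It joins arrays whose medians differ. Within a single set the count was 5 for HNGMT against NGMT, 2 for DMT against GMT and 3 for DMNT against DMT. For the first of these the counts over all tested genes are given above. In NGMT against GMT it was 3 in set 1 and 0 in set 2, where 5.52% and 0.00819% of all tested genes were called. Without the filter, which adds 19 genes, it was 25 for HGMT against GMT (17.2% of all genes) and 19 for HNGMT against NGMT (6.42% higher and 13.4% lower). It was 30 for HGMT against 0F (34.8%), 31 for HNGMT against 0F (33.7%) and 0 for NGMT against GMT (0.838%). Without the filter and HNGMT replicate 1, a pair of choices made after seeing the data, it was 19 for HNGMT against NGMT, with the share given above. For HNGMT against 0F it was 31 (36.4% of all genes).

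The replicate block by title number gave 6 for HGMT against GMT (17.1% of all tested genes), 5 for HNGMT against NGMT, 2 for DMT against GMT and 0 for DMNT against NGMT. A replicate block by description number in set 2, chosen after seeing the data, gave 7, 5 and 2 for the first 3 of these and 0 for NGMT against GMT. It called 16.6% of all tested genes in HGMT against GMT and 0.0164% in NGMT against GMT. Leaving out each array in turn gave 14 to 17 for GMT against 0F and for NGMT against 0F, where 55.6% to 60.6% and 55.9% to 60.3% of all tested genes were called. Against 0F the counts were 18 to 19 for HGMT (48.0% to 48.5% of all), 15 to 20 for HNGMT (46.2% to 54.4%), 9 to 12 for DMT (53.1% to 56.4%) and 8 to 8 for DMNT (39.3% to 40.1%). It gave 8 to 12 for HGMT against GMT (20.94% to 28.02% of all) and for HNGMT against NGMT (26.6% to 38.61%). For HNGMT against HGMT the range was 0 to 7 (0.008189% to 25.74%), and for NGMT against GMT 0 to 1 (0.4258% to 3.104%). DMT against GMT gave 3 to 5 (14.27% to 19.79%). The range was 0 to 0 in DMNT against DMT (0.04095% to 0.1065%) and 1 to 1 in DMNT against NGMT (5.47% to 6.453%). Both interactions gave 0 to 0. Of all tested genes 0% to 5.004% were called for that of Hand2 with NKX2.5, and 0.1884% to 1.466% for that of NGMT against GMT between sets. The DMNT comparisons could not be fitted without DMT replicate 4.

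Of 121 called differences of single genes, 6 changed sign, all under quantile normalization: Ccnd3 was at -0.10 in NGMT, -0.064 in HGMT, -0.15 in HNGMT and -0.19 in DMT against 0F and at -0.050 in HNGMT against NGMT, and E2f1 was at 0.092 in HNGMT against 0F. Over the alternatives other than leaving out an array, 710 of 849 refits kept both direction and call, 133 lost the call and 6 reversed. Leaving out arrays kept 824 of 910 and lost 86. The cause was not tested. The 19 dim genes were above the array median on fewer than 3 arrays.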
